A study of Mus musculus with 13 samples.

Results

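Lpcat4, Gja1, Trp53rka and Acsm1 are 4 genes, of 22180 measured, that were selected because their expression was higher in pancreatic tumors of obese mice than in tumors of control mice, and lower again in tumors of obese mice fed HMB, that is β-hydroxy-β-methylbutyrate, a leucine metabolite sold as a muscle supplement. The tumors were grown under the skin of male C57BL/6 mice from Panc02, a mouse pancreatic ductal adenocarcinoma line, so each is a mixture of 1 cell line with host cells. The 13 arrays, each from a different mouse, held 4 tumors of mice with diet-induced obesity (DIO) given HMB (DIO + HMB), 3 of DIO mice without HMB (DIO), 3 of control-diet mice given HMB (control + HMB) and 3 of control-diet mice without it (control). Whether a mouse had been injected with gemcitabine or vehicle, and its age, are not given in the labels. Expression is given on the log2 scale after RMA, a normalization that subtracts background and equalizes the distributions of the arrays, so 1 unit is a doubling of signal.

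The 4 genes belong to separate pathways. Lpcat4 encodes a lysophospholipid acyltransferase, which puts a fatty acid back onto a phospholipid that a phospholipase A2 has clipped, and so remodels membranes. Gja1 encodes Cx43, the widely expressed connexin subunit of gap junctions, through which neighboring cells exchange ions and small metabolites. Trp53rka encodes a mouse counterpart of the p53-related protein kinase, which in human cells can phosphorylate p53 and works in the KEOPS complex, an assembly that modifies transfer RNAs. Acsm1 encodes a mitochondrial medium-chain acyl-CoA synthetase, which activates butyrate and other short fatty acids and is known mainly from liver and kidney.

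To show what lies in front of these genes, the 180 bases before their annotated starts were read from RefSeq promoter windows of build GRCm38.p6, since genes chosen to move together raise the question of shared promoter words. The stretches were chr2:112239661-112239840 (+ strand) for Lpcat4, chr10:56377120-56377299 (+ strand) for Gja1, chr2:165493315-165493494 (- strand) for Trp53rka and chr7:119617562-119617741 (+ strand) for Acsm1, the last taken farther upstream so that it ends before the annotated gene body. Capitals mark the words searched.
Lpcat4: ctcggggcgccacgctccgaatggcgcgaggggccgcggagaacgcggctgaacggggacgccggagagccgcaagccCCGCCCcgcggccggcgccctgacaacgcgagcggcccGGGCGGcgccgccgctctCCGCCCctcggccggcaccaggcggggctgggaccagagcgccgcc
Gja1: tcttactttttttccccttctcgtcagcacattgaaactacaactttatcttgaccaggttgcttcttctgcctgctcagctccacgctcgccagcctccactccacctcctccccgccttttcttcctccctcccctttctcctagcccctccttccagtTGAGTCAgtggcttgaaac
Trp53rka: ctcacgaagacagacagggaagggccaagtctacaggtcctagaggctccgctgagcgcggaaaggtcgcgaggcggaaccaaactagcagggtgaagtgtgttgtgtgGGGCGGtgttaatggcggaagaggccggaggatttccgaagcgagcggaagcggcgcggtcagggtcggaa
Acsm1: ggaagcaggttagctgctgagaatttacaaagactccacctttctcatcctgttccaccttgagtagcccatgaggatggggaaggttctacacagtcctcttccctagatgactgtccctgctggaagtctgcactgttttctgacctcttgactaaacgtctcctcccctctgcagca

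Over the 250 bases before the start, searched on both strands for 7 short words, no word was found in all 4 genes. GGGCGG, the core of the GC box that Sp1 binds, occurred 3 times for Lpcat4 and 1 time for Trp53rka, and 32.9% of 27025 windows of that length hold it. TGAGTCA, the AP-1 site, stood close to the start of Gja1, where 4.43% of windows hold it, and TGACGT, the core of the cAMP response element, lay farther upstream, outside the printed stretch (6.56% of windows). For Acsm1 only CCAAT was found, also outside the printed stretch (34.5%). The TATA box word TATAAA was in none of the 4 windows. Neither was the E-box word CACGTG, nor the hypoxia element core ACGTG, which every E-box of that spelling contains. Of all windows 13.0%, 6.05% and 16.6% hold these words in that order. GC content over the 250 bases was 79.6% for Lpcat4, 58.8% for Trp53rka and 50% for each of Gja1 and Acsm1. These matches describe letters in a window, and binding was not measured.

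Lpcat4 ranked near the top in both differences. It was 6 among genes higher in DIO and 5 among genes lower in DIO + HMB. Its expression was 8.73, 9.01, 8.68 and 8.99 in the 4 DIO + HMB tumors, 9.57, 9.44 and 9.43 in the DIO tumors, 8.84, 9.14 and 8.86 in the control + HMB tumors, and 8.73, 8.86 and 8.74 in the control tumors. Every DIO tumor lay above all 10 other tumors, and the other groups overlapped one another. The DIO + HMB mean was 8.85 ± 0.17 (SD, n = 4), the DIO mean 9.48 ± 0.077, the control + HMB mean 8.95 ± 0.17 and the control mean 8.78 ± 0.073 (SD, n = 3 each). Lpcat4 was higher in DIO relative to control by 0.70 on the log2 scale (SE 0.13), a fold of 1.63, and the log2 difference of DIO + HMB relative to DIO was -0.63 (SE 0.12), a fold of 1.54 down. These 2 differences share the DIO arrays and chose the gene, so they are given without a test.

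Acsm1 had the same shape at a low signal. It was 1.62, 1.77, 1.42 and 1.67 in the DIO + HMB tumors, 2.05, 2.52 and 2.56 in the DIO tumors, 1.53, 1.40 and 1.71 in the control + HMB tumors, and 1.56, 1.66 and 1.66 in the control tumors. Again every DIO tumor lay above all other tumors, and the lowest of them was DIO replicate 1. Group means were 1.62 ± 0.15 (SD, n = 4) in DIO + HMB, 2.38 ± 0.28 in DIO, 1.55 ± 0.16 in control + HMB and 1.63 ± 0.059 in control (SD, n = 3 each). The log2 difference of DIO + HMB relative to DIO was -0.76 (SE 0.14), and that of DIO relative to control was 0.75 (SE 0.15), folds of 1.69 and 1.68. These values sat near the bottom of each array: between 5.15% and 27.0% of all genes had a lower value on the same array, against 92.6% to 97.3% for Lpcat4, 75.3% to 87.7% for Gja1 and 49.7% to 66.6% for Trp53rka. The table holds no detection call, so whether the Acsm1 probe set was above background was not measured.

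Gja1 was highest in DIO and lowest in control. Its expression was 7.41, 7.78, 7.74 and 7.79 in the DIO + HMB tumors, 7.96, 7.99 and 8.08 in the DIO tumors, 7.25, 7.85 and 7.35 in the control + HMB tumors, and 6.91, 7.21 and 7.20 in the control tumors. Every DIO tumor was above all other tumors and every control tumor below all others. DIO + HMB and control + HMB overlapped. The means were 7.68 ± 0.18 (SD, n = 4) in DIO + HMB, 8.01 ± 0.063 in DIO, 7.48 ± 0.32 in control + HMB and 7.11 ± 0.17 in control (SD, n = 3 each). The log2 difference was -0.33 (SE 0.16) for DIO + HMB relative to DIO and 0.90 (SE 0.17), a fold of 1.87, for DIO relative to control.

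Trp53rka had the largest difference between DIO and control among the 4 genes. It was 5.25, 5.31, 5.71 and 5.49 in the DIO + HMB tumors, 5.77, 6.22 and 5.41 in the DIO tumors, 5.14, 5.31 and 5.07 in the control + HMB tumors, and 4.51, 4.24 and 4.90 in the control tumors. The control tumors lay below all others, whereas DIO + HMB and DIO were not separated, with DIO replicate 3 below DIO + HMB replicates 3 and 4. The means were 5.44 ± 0.21 (SD, n = 4) in DIO + HMB, 5.80 ± 0.41 in DIO, 5.17 ± 0.13 in control + HMB and 4.55 ± 0.33 in control (SD, n = 3 each). Relative to control, DIO was higher by 1.25 on the log2 scale (SE 0.22), a fold of 2.37. For DIO + HMB relative to DIO the log2 difference was -0.36 (SE 0.20), which became -0.15 without DIO replicate 2 and -0.56 without DIO replicate 3.

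**Figure D1:**
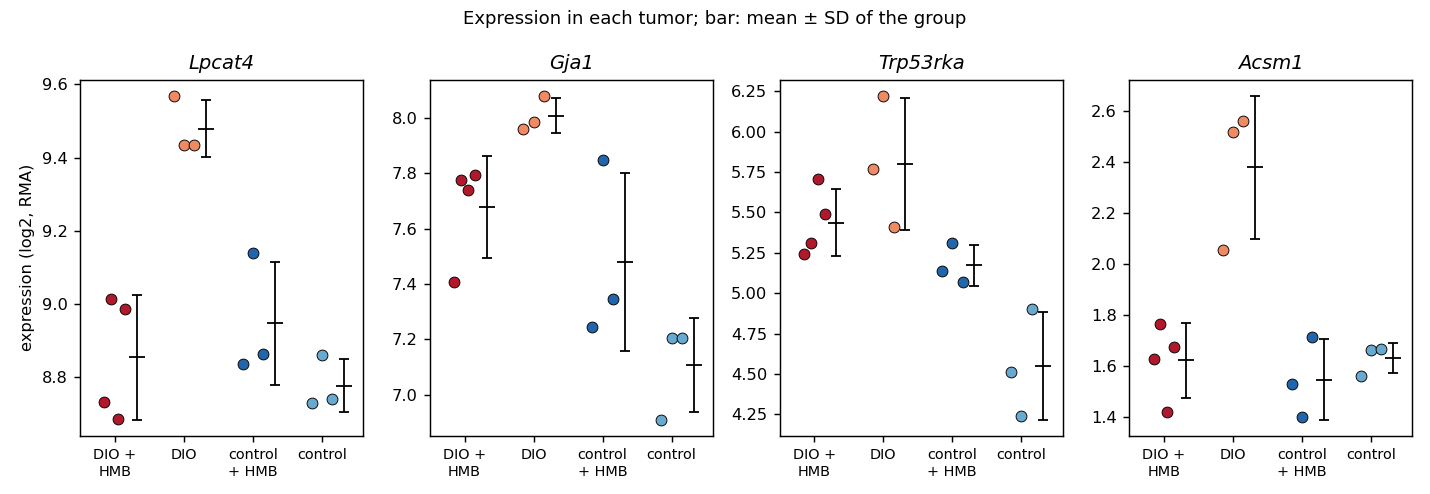
Expression of the 4 genes (log2, RMA) in each of 13 tumors by group, with the mean ± SD of the group as a bar beside the points (n = 4 in DIO + HMB, n = 3 in the other groups). The 3 DIO tumors lie above all others for Lpcat4, Gja1 and Acsm1, whereas DIO and DIO + HMB overlap for Trp53rka, and the control tumors lie below all others for Gja1 and Trp53rka.

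The name of the set therefore described its genes unequally. No gene passed at an adjusted p of 0.05 over 22180 genes in limma in either of the comparisons that chose them: the lowest was adjusted p = 0.32 for DIO relative to control, with 1717 genes at an unadjusted p under 0.05, and 0.705 for DIO + HMB relative to DIO, with 1571. The methods' pairwise t statistic, run on the same values, gave 0 genes as well, with 1194 and 1356 at an unadjusted p under 0.05. At that unadjusted level, all 4 genes were higher in DIO, where 4.31% of all genes were, and only Lpcat4 and Acsm1 were lower in DIO + HMB, where 3.75% were. Every DIO tumor was above every control tumor for 4 of 4 genes (6.04% of all genes), and every DIO + HMB tumor was below every DIO tumor for 3 of 4 (4.22%) and above for 0 of 4 (3.57%). All DIO tumors were above all control and all DIO + HMB tumors for 3 of 4 genes (0.807%), and above every other tumor for the same 3 (0.379%). All control tumors were below every other tumor for 2 of 4, Gja1 and Trp53rka (1.79%). The genes were picked on these comparisons, so nothing follows from their counts.

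When all genes were ordered by the weaker of the 2 differences, taken as the larger one-sided p, Lpcat4 ranked 1 and Acsm1 ranked 2, whereas Gja1 ranked 187 and Trp53rka 358. Just below Acsm1 in that order stood the olfactory receptor gene Olfr987 at rank 3 (0.52 and -0.61) and Sox11, a developmental transcription factor gene at rank 4, with log2 differences of 0.57 for DIO relative to control and -0.59 for DIO + HMB relative to DIO. Next to Gja1 stood the collagen lysyl hydroxylase gene Plod2 at rank 186 (0.40 and -0.44), and next to Trp53rka the heat shock gene Hspa4l at rank 357 (0.28 and -0.35). Both differences had an unadjusted p under 0.05, in the directions named, for 148 genes (0.667%). Gja1 and Trp53rka, which ranked 4 and 2 among genes higher in DIO, ranked 949 and 1564 among genes lower in DIO + HMB.

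The 4 genes also differed in how near DIO + HMB came to control. DIO + HMB kept 11% of the log2 difference between DIO and control for Lpcat4, -1.12% for Acsm1, and 63.4% for Gja1 and 71.0% for Trp53rka. The log2 difference of DIO + HMB relative to control was 0.08 (SE 0.12) for Lpcat4, -0.01 (SE 0.14) for Acsm1, 0.57 (SE 0.16) for Gja1 and 0.89 (SE 0.20) for Trp53rka. It is the sum of the 2 differences that chose the genes and was not tested. These values moved with the scaling: with arrays centered on their median they were -0.09 for Lpcat4, -0.18 for Acsm1, 0.40 for Gja1 and 0.71 for Trp53rka, and with the width of each array as a covariate -0.04, 0.34, 0.32 and 0.82 in the same order of genes.

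The 3 control + HMB tumors took no part in choosing the genes. Relative to control, Trp53rka was higher there by 0.62 on the log2 scale (SE 0.22, unadjusted p = 0.0138, limma adjusted p = 0.343), with all 3 tumors above all 3 control tumors. Gja1 was higher by 0.37 (SE 0.17, unadjusted p = 0.0473, limma adjusted p = 0.433), also with no overlap, by 0.19 without control + HMB replicate 2, by 0.24 with arrays centered on their median and by 0.14 with array width as a covariate. For Lpcat4 the difference was 0.17 (SE 0.13, limma adjusted p = 0.65), or 0.07 without that array, 0.03 with arrays centered and 0.06 with the width covariate, and for Acsm1 it was -0.08 (SE 0.15, limma adjusted p = 0.871), or -0.22 and 0.24 under those settings, with overlap in both genes. None passed, and 2537 genes had an unadjusted p under 0.05. At that level 7.22% of all genes were higher in control + HMB, and in 11.4% every control + HMB tumor lay above every control tumor (below in 6.07%). The control arrays are those on which the genes were found low in the first place.

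Between the HMB-fed groups no difference in the 4 genes passed. DIO + HMB relative to control + HMB gave -0.09 (SE 0.12) for Lpcat4, 0.20 (SE 0.16) for Gja1, 0.27 (SE 0.20) for Trp53rka and 0.07 (SE 0.14) for Acsm1 on the log2 scale, each at limma adjusted p = 0.9999 and with overlapping groups. Of all genes, 0.933% were higher and 1.92% lower at an unadjusted p under 0.05, and the groups did not overlap in 1.27% (above) and 3.07% (below). These tests use the DIO + HMB arrays on which the genes were found lower than in DIO, so they are not independent of the choice. Obesity without HMB against the lean HMB-fed group was larger: DIO relative to control + HMB gave 0.53 (SE 0.13) for Lpcat4, 0.53 (SE 0.17) for Gja1, 0.63 (SE 0.22) for Trp53rka and 0.83 (SE 0.15) for Acsm1. All 4 had an unadjusted p under 0.05, where 2.19% of genes were higher and 2.81% lower at that level, all DIO tumors were above all control + HMB tumors in each (4.33% of genes), and none passed adjustment (limma adjusted p = 0.848 for Acsm1 and 0.947 for the others). That comparison uses the DIO arrays on which the genes were found high. Subtracting the HMB effect on the control diet from the one in obese mice gave -0.80 (SE 0.18) for Lpcat4, -0.70 (SE 0.23) for Gja1, -0.98 (SE 0.30) for Trp53rka and -0.67 (SE 0.21) for Acsm1, given without a test because it holds a comparison that chose the genes.

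**Figure D2:**
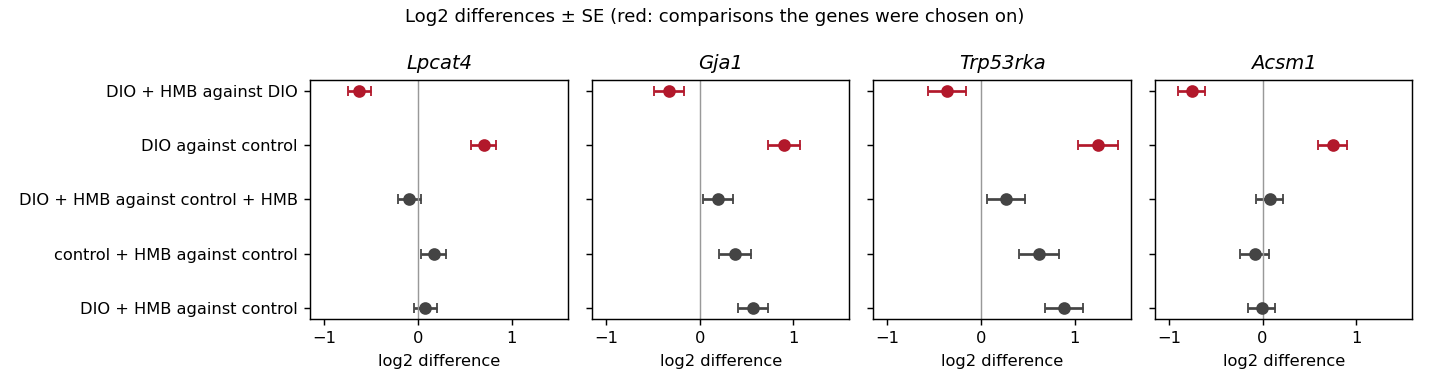
Log2 differences ± SE of the 4 genes from the model over all 13 arrays, 1 row per comparison, with red points for the 2 comparisons on which the genes were chosen. DIO + HMB against control lies near 0 for Lpcat4 (0.08) and Acsm1 (-0.01) and above 0 for Gja1 (0.57) and Trp53rka (0.89).

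The relatives Lpcat1, Lpcat2 and Lpcat3 had smaller differences than Lpcat4. Lpcat3, the liver-type enzyme for arachidonate-containing phosphatidylcholine, had a log2 difference of 0.24 (SE 0.11) for DIO + HMB relative to DIO and 0.07 (SE 0.12) for DIO relative to control. Lpcat1, known for lung surfactant, gave 0.03 (SE 0.11) and 0.09 (SE 0.12), and Lpcat2, which makes platelet-activating factor in macrophages, gave 0.15 (SE 0.21) and -0.22 (SE 0.22). Of the 19 lysophospholipid and glycerol-phosphate acyltransferases, 0 passed in either direction in either comparison. At an unadjusted p under 0.05, Lpcat4 was higher and Lpcat2b lower (-0.49, SE 0.19) in DIO relative to control, beside 4.31% and 3.44% of all genes. In DIO + HMB relative to DIO, Lpcat4 was lower and Gpam, the mitochondrial enzyme that starts triglyceride synthesis, higher (0.53, SE 0.18), beside 3.75% and 3.34%. Lpcat4 was chosen on both comparisons, and Lpcat2b had a low signal, from 1.45 in DIO to 2.56 in control. The list's median log2 difference was 0.06 for DIO + HMB relative to DIO and 0.09 for DIO relative to control, beside -0.01 and 0.02 over all genes, and with arrays centered on their median the first turned to -0.06.

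Among genes that act before and after Lpcat4 in phospholipid remodeling, 0 passed in any comparison described here. Among 16 phospholipase A2 genes the median was 0.19 for DIO relative to control and 0.26 for control + HMB relative to control, beside 0.02 and 0.04 over all genes. Pafah2, which hydrolyzes oxidized phospholipids, was 4.92 to 5.32 in DIO + HMB, 4.95 to 5.48 in DIO, 5.49 to 5.54 in control + HMB and 4.25 to 4.8 in control. Among 11 genes of choline and ethanolamine phospholipid synthesis the medians were 0.14 and 0.30, and Selenoi, the ethanolamine phosphotransferase, was 8.0 to 8.34 in DIO + HMB, 8.01 to 8.56 in DIO, 8.13 to 8.33 in control + HMB and 7.51 to 7.89 in control. For both genes the control tumors lay below all others, as in 1.79% of all genes. Both were named for an unadjusted p under 0.05 in DIO relative to control, so low control values were part of that choice. The log2 difference of DIO + HMB relative to DIO was -0.07 (SE 0.16) for Pafah2 and -0.05 (SE 0.16) for Selenoi. The list medians given here were not centered, and array medians over the gene table were 0.14 higher in control + HMB than in control.

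Among gap junction genes, the relatives of Gja1 differed from one another. The skin connexin gene Gjb5 had the signs of Gja1, with log2 differences of -0.31 (SE 0.27) for DIO + HMB relative to DIO, 0.82 (SE 0.29) for DIO relative to control and 0.66 (SE 0.29) for control + HMB relative to control. It was 2.98 to 3.42 in DIO + HMB, 2.7 to 3.91 in DIO, 3.09 to 3.82 in control + HMB and 2.59 to 2.78 in control, so DIO overlapped every other group. The endothelial connexin gene Gja4 had its lowest mean in DIO, where Gja1 had its highest, and its highest mean in DIO + HMB. Gja4 was 4.49 to 4.99 in DIO + HMB, 4.22 to 4.32 in DIO, 4.01 to 4.84 in control + HMB and 4.43 to 5.0 in control. Its log2 difference was 0.42 (SE 0.21) for DIO + HMB relative to DIO and -0.38 (SE 0.22) for DIO relative to control, neither at an unadjusted p under 0.05. Gjc1, another connexin gene, gave -0.12 (SE 0.24) and -0.25 (SE 0.26), and Panx1, a channel that releases ATP, gave 0.27 (SE 0.21) and 0.09 (SE 0.22). Of 19 connexin and pannexin genes measured, 0 passed, with medians of -0.04 for DIO + HMB relative to DIO and -0.02 for DIO relative to control. Besides Gja1, only Gjb5 was higher and Gje1 (-0.47, SE 0.19) lower in DIO relative to control at an unadjusted p under 0.05, beside 4.31% and 3.44% of all genes. Of 11 genes of Cx43 partners and regulators, 11 were higher in DIO than in control, with a median of 0.10 beside 0.02 over all genes, and 0 passed. With arrays centered on their median 9 of 11 were higher, with a median of 0.05. Src, a kinase that closes Cx43 channels, had a log2 difference of -0.25 (SE 0.11) for DIO + HMB relative to DIO and 0.17 (SE 0.12) for DIO relative to control.

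Trp53rka has a closely related copy, Trp53rkb, so hybridization signal could be shared between them and the values of both are uncertain. Their RefSeq promoter windows of 300 bases aligned over 246 columns with 89.4% identity and shared an unbroken stretch of 76 bases. Of each window 250 bases lie before the start used, and for Trp53rkb that stretch reached into its annotated gene body. The likeness of the windows does not show whether probes are shared, and transcript and probe sequences were not compared. The single probe sets of the 2 genes gave different values. Trp53rkb was 4.07 to 4.59 in DIO + HMB, 3.36 to 4.56 in DIO, 4.07 to 4.60 in control + HMB and 3.91 to 4.27 in control, and all groups overlapped. Its log2 difference was 0.26 (SE 0.25) for DIO + HMB relative to DIO and 0.00 (SE 0.27) for DIO relative to control. How much of either signal came from the other gene was not tested.

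The other KEOPS genes did not follow Trp53rka. Osgep, the catalytic subunit, had a log2 difference of 0.19 (SE 0.17) for DIO + HMB relative to DIO and 0.02 (SE 0.18) for DIO relative to control. Tprkb, which binds the kinase subunit, gave 0.31 (SE 0.19) and 0.24 (SE 0.21). Of 8 genes of the complex and of the same transfer RNA modification, 0 passed in either comparison. Trp53rka was the only one at an unadjusted p under 0.05, in DIO relative to control, where 4.31% of all genes were higher. It was chosen on that comparison, so nothing follows from this count. All 8 were higher in control + HMB than in control, by a median of 0.29, beside 0.04 over all genes. Without Trp53rka, itself found low on these control arrays, the median was 0.26. The values were not centered, and array medians over the gene table were 0.14 higher in control + HMB than in control.

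Since the product of Trp53rka is named for p53, 20 measured p53 targets were described as well, of which 0 passed in any comparison. At an unadjusted p under 0.05, 8 of 20 were higher and 0 lower in DIO relative to control, beside 4.31% and 3.44% of all genes. They were Ddit4, an inhibitor of mTORC1 (log2 difference 0.89, SE 0.37), the cell cycle inhibitor gene Cdkn1a (0.70, SE 0.28), the stress sensor gene Sesn2 (0.59, SE 0.27), the death receptor gene Eda2r (0.51, SE 0.23), the nuclease gene Aen (0.48, SE 0.13), Mdm2, the ubiquitin ligase of p53 (0.45, SE 0.15), Tigar, which lowers glycolytic flux (0.44, SE 0.12), and the cyclin gene Ccng1 (0.40, SE 0.15). Aen was 5.72 to 5.91 in DIO + HMB, 5.79 to 6.05 in DIO, 5.72 to 5.79 in control + HMB and 5.15 to 5.55 in control. Its control tumors lay below all others, as in 1.79% of all genes, and the other groups overlapped. In control + HMB relative to control, 6 of 20 were higher at that level (7.22% of all genes), with 0.46 (SE 0.15) for Mdm2 and 0.46 (SE 0.12) for Tigar, on the same control arrays.

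HMB in obese mice was not accompanied by a general decrease of these targets. In DIO + HMB relative to DIO, Eda2r (-0.46, SE 0.21) and Zmat3 (-0.32, SE 0.13), which encodes a p53-regulated RNA-binding protein, were lower at an unadjusted p under 0.05, and Fas, a death receptor gene, was higher (0.78, SE 0.27). That is 2 of 20 lower and 1 of 20 higher, beside 3.75% and 3.34% of all genes. The list's median was 0.03 for DIO + HMB relative to DIO, or -0.09 with arrays centered, and 0.18 for DIO relative to control.

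**Figure D3:**
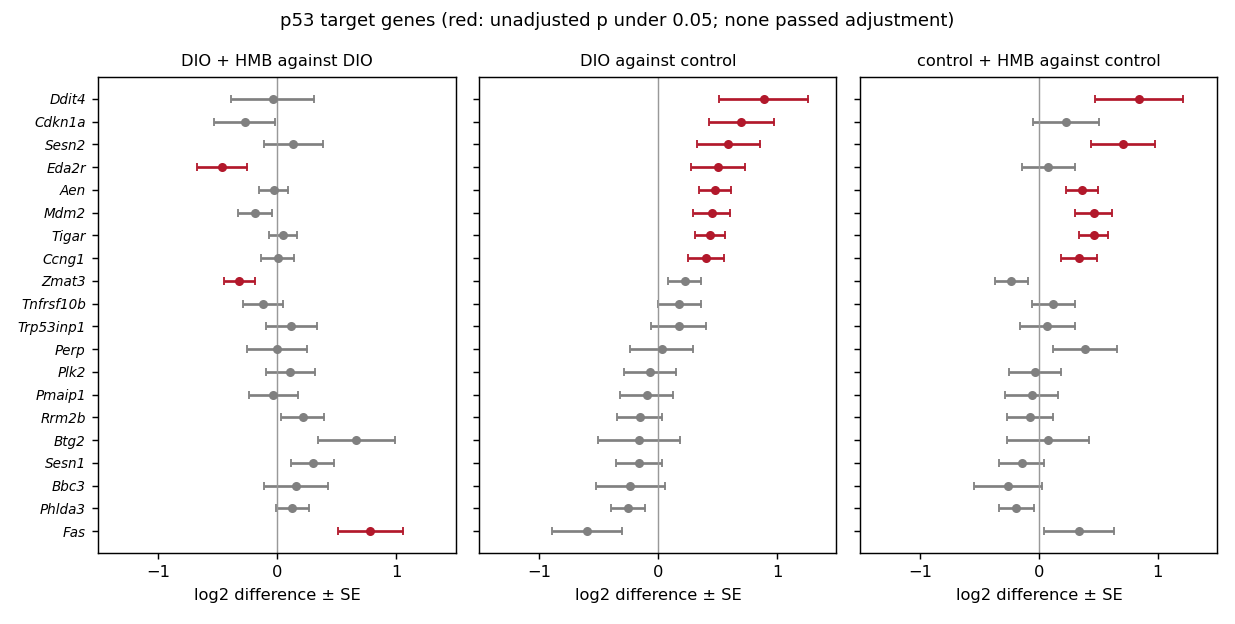
Log2 differences ± SE of 20 p53 target genes in 3 comparisons, ordered by DIO against control, with red points at an unadjusted p under 0.05. In DIO against control 8 of 20 are red and higher, and in DIO + HMB against DIO 2 are red and lower (Eda2r and Zmat3) and 1 is red and higher (Fas). No gene passed adjustment.

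Acsm2 and Acsm5, relatives of Acsm1, had small differences at a similarly low signal, where small differences say little. Acsm4 was also measured and is counted in the list below. Acsm2 was 1.75 to 1.97 in DIO + HMB, 1.69 to 1.93 in DIO, 1.53 to 1.95 in control + HMB and 1.81 to 1.91 in control, and Acsm5 was 2.26 to 2.57, 2.33 to 2.51, 2.14 to 2.53 and 2.00 to 2.58 in the same groups. Both encode medium-chain acyl-CoA synthetases. The log2 difference of DIO relative to control was -0.06 (SE 0.13) for Acsm2 and 0.04 (SE 0.17) for Acsm5, and that of DIO + HMB relative to DIO was 0.08 (SE 0.12) and -0.01 (SE 0.16). The list as a whole was split, 5 genes being higher and 5 lower in DIO + HMB relative to DIO. Acss1 and Acss2, which activate acetate in mitochondria and cytosol, and Acsf2 were higher in DIO + HMB relative to DIO at an unadjusted p under 0.05, by 0.77 (SE 0.32), 0.43 (SE 0.16) and 0.51 (SE 0.18). Of the 10 measured genes of this list 0 passed, 3 were higher and 1, Acsm1 itself, was lower at an unadjusted p under 0.05, beside 3.34% and 3.75% of all genes.

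A list of short- and medium-chain fatty acid oxidation also held electron transfer and ketone body genes, so it is wider than enzymes using products of Acsm1. Of its 14 genes, 12 were higher in DIO + HMB relative to DIO, and 0 passed. The median log2 difference was 0.20, beside -0.01 over all genes. With arrays centered on their median 11 of 14 were higher, with a median of 0.085. Echs1, the short-chain enoyl-CoA hydratase, was 7.99 to 8.18 in DIO + HMB, 7.63 to 7.90 in DIO, 7.88 to 8.14 in control + HMB and 7.78 to 8.33 in control. The ketone body enzyme gene Bdh1 was higher in DIO + HMB relative to DIO by 0.58 (SE 0.26). In DIO relative to control 10 of 14 were lower (median -0.07), and Etfb, a subunit of the electron transfer flavoprotein, had a log2 difference of -0.59 (SE 0.14). Long-chain acyl-CoA synthetases had medians of 0.10 for DIO + HMB relative to DIO and -0.00 for DIO relative to control over 11 genes, and 0 passed. The first turned to -0.02 with arrays centered.

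**Figure D4:**
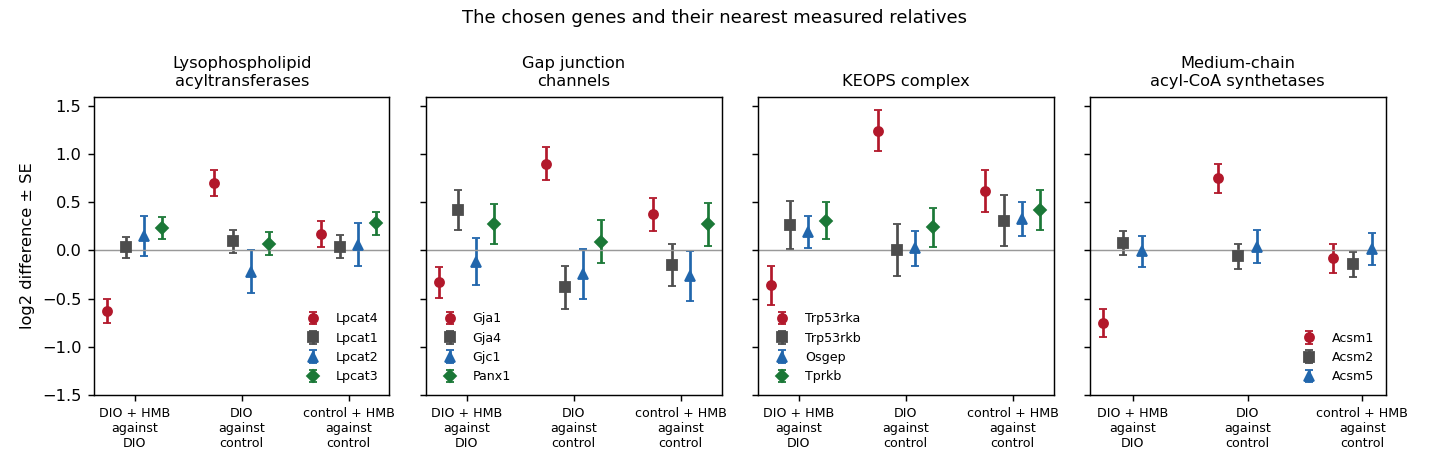
Log2 differences ± SE of the 4 chosen genes (red circles) and of measured relatives in 3 comparisons, 1 panel per family. In DIO against control the red circles lie at 0.70, 0.90, 1.25 and 0.75, and the relatives plotted, chosen by role, lie between -0.38 (Gja4) and 0.24 (Tprkb). Gjb5 (0.82), Lpcat2b (-0.49) and Gje1 (-0.47) are not plotted.

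The 4 genes were correlated over the 13 arrays but not as 1 group. Pearson's r was 0.79 between Lpcat4 and Acsm1, 0.78 between Lpcat4 and Gja1, 0.82 between Gja1 and Trp53rka, and 0.48 between Trp53rka and Acsm1, the lowest pair. The group means that chose the genes make up part of these values. Over the deviations of each array from its group mean, r was 0.68 between Lpcat4 and Gja1, 0.21 between Gja1 and Trp53rka, -0.07 between Lpcat4 and Acsm1, and -0.23 between Trp53rka and Acsm1. Lpcat4 and Gja1 thus also varied together inside the groups, both being high in control + HMB replicate 2 (9.14 and 7.85), whereas Acsm1 varied apart from the others.

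The named genes most like each of the 4 over the 13 arrays were different for each. Predicted genes and members of large receptor or RNA families were passed over by symbol, which left out 1 gene for Lpcat4 and 2 for Acsm1 that ranked above some of those given. For Lpcat4 they were Mfsd12, a lysosomal transporter gene (r = 0.90), Sox11 (0.88), Klhdc4 (0.87) and Macroh2a2, which encodes a histone variant (0.85). For Gja1 they were Smim10l1 (0.91), Npl, an enzyme of sialic acid breakdown (0.90), Uso1, a vesicle tether of the Golgi (0.89), and Cdr2 (0.88). For Trp53rka they were Socs6, a suppressor of cytokine signaling (0.90), the defensin gene Defb3 (0.88), the sulfotransferase gene Ust (0.87) and Aida (0.87). For Acsm1 they were Chrnb3, a nicotinic receptor subunit (0.93), the histone deacetylase gene Hdac2 (0.90), the calcium sensor gene Hpcal4 (0.89) and Ppp1r3e, which directs a phosphatase to glycogen (0.88). They come from the upper end of 22180 genes over 13 arrays that share tumor make-up and array processing, and are given as a description. Mfsd12 and Macroh2a2 had log2 differences of -0.36 and -0.89 for DIO + HMB relative to DIO and of 0.60 and 0.76 for DIO relative to control, whereas Npl had -0.03 and 0.94.

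In tumors of this kind a change in the share of a cell type and a change in its RNA per cell cannot be told apart. Of the 10 genes listed for Panc02, the keratin genes Krt8 (8.75 to 9.62) and Krt18 (8.99 to 9.97) and the mesenchymal genes Vim (12.1 to 12.5) and Fn1 (12.3 to 12.5) were high on every array. Cdh1 (7.04 to 8.25) and Zeb1 (6.49 to 7.14) were intermediate. Krt19 (3.28 to 6.56), Epcam (3.84 to 6.47), Twist1 (3.56 to 5.52) and Cdh2 (4.44 to 6.15) were lower. Scores of both Panc02 lists overlapped between groups. A score is the mean log2 value of a marker list, with each gene centered on its mean over all arrays. The hypoxia score was low in control and reached its highest value in DIO, and ran from -0.20 to 0.18 in DIO + HMB, 0.03 to 0.76 in DIO, -0.35 to 0.53 in control + HMB and -0.49 to -0.30 in control. Of 7 measured hypoxia genes, 6 were lower in DIO + HMB relative to DIO and 6 higher in DIO relative to control. All 5 proliferation genes did the same, with scores of -0.48 to 0.20 in DIO + HMB, -0.00 to 0.41 in DIO, -0.12 to 0.08 in control + HMB and -0.31 to 0.16 in control. T cell markers ran the other way, at -0.17 to 1.22 in DIO + HMB, -0.63 to -0.27 in DIO, -0.39 to 0.47 in control + HMB and -0.25 to 0.31 in control. Neutrophil scores were 0.22 to 0.28, -0.66 to -0.07, -0.04 to 0.15 and -0.24 to 0.05 in the same groups, and the -0.66 was DIO replicate 3. Of 5 neutrophil markers, 4 were higher and 1 lower in DIO + HMB relative to DIO. In DIO relative to control they were split, 2 being higher and 3 lower. Other markers were also higher in DIO + HMB relative to DIO: adipocyte markers in 6 of 6 (median log2 difference 1.30), smooth muscle and pericyte markers in 6 of 6 (0.46) and B cell markers in 5 of 5 (1.59). B cell scores were 3.70, 0.12, -0.47 and -0.10 in the DIO + HMB tumors, so 1 tumor stood far above its group. They were -0.88 to -0.64 in DIO, -0.32 to 0.33 in control + HMB and -0.46 to -0.32 in control. Adipocyte scores overlapped between all groups, at -1.44 to 2.90 in DIO + HMB, -1.66 to 0.61 in DIO, -0.63 to 1.06 in control + HMB and -2.48 to 1.41 in control. Over deviations from group means, Lpcat4 and the adipocyte score had r = 0.80 over 13 arrays. It was the largest such value among the 4 genes and 16 marker lists, and without subtracting group means r was 0.16. Next in size were 0.69 for Gja1 with macrophage markers, -0.68 for Acsm1 with skeletal muscle markers and 0.67 for Trp53rka with Panc02 mesenchymal markers. The part of these cells and states in the values of the 4 genes was not tested. For Acsm1, 4 of 5 hepatocyte markers stayed between 1.95 and 4.04 on all arrays, Cyp2e1 ran from 3.16 to 7.5, and hepatocyte scores overlapped between all groups.

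DIO + HMB replicate 1, with a B cell score of 3.70 against -0.88 to 0.33 over the other groups, was also the DIO + HMB tumor lowest in Gja1. Without it the log2 difference of DIO + HMB relative to DIO was -0.24 for Gja1, and without any 1 array it stayed between -0.68 and -0.57 for Lpcat4 and between -0.92 and -0.67 for Acsm1. DIO relative to control stayed between 0.66 and 0.75 for Lpcat4, 0.80 and 0.95 for Gja1, 1.04 and 1.44 for Trp53rka and 0.66 and 0.91 for Acsm1. Centering each array on its median, which takes out differences between the groups' array medians over the gene table of 0.12 between DIO + HMB and DIO, of 0.14 between control + HMB and control and of 0.05 between DIO and control, left every sign of the 2 choosing comparisons in place. Pairs of arrays correlated at r = 0.960 to 0.983 over 41345 probe sets, and medians over all probe sets, with and without a gene name, were 3.65 to 3.75.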

How the data were processed

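RNA of each tumor was measured on 1 array (Affymetrix Mouse Gene 2.1 ST). The deposited values are log2 intensities that the authors normalized with RMA (affy and limma are also named in their processing notes). The genome build behind the probe sets is not given in the sources used here. Of 41345 probe sets, 23521 carried 1 gene symbol, 1820 several and 16004 none. The probe set with the highest mean over 13 arrays stood for a gene, giving 22180 genes. The number of arrays limits the precision.

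A model with 1 mean per group was fitted to all genes and arrays in limma 3.58.1 (R 4.3.3, lmFit and eBayes, 9 residual degrees of freedom), with Benjamini-Hochberg adjustment over all genes at a threshold of 0.05. The fit was tested on simulated data. The 4 genes and all gene lists were chosen with earlier results of these data known. Named genes are the 4 genes, relatives and list members past an unadjusted p of 0.05, and, for each, 4 genes highest by Pearson's r after passing over predicted genes, receptor and RNA families and antigen receptor segments by symbol. Promoter windows and symbols came from RefSeq. Alternatives covered 9 other settings and leaving out each array.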

Additional observations from a re-analysis of the deposited data

Results flagged for a closer look

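Gja1 in DIO + HMB replicate 1 was 7.41, far below the other DIO + HMB tumors: its gap to the nearest of them took up 0.857 of the range of the group, over the limit of 0.829 for 4 samples. Chance gives such a gap in about 1 in 20 groups. The HMB effect had opposite signs on the 2 diets in 3 of the 4 genes. The log2 difference was -0.63 in DIO against 0.17 in the control diet for Lpcat4, -0.33 against 0.37 for Gja1 and -0.36 against 0.62 for Trp53rka. In the control diet the difference was 0.03 for Lpcat4 and 0.24 for Gja1 with arrays centered on their median, and 0.06 and 0.14 with array width as a covariate. The choice of genes set the negative sign in DIO, and the control arrays are those on which the genes were found low. Opposite signs are thus partly built into the choice, and the difference between the diets was not tested.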

How the results depend on the processing

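Both choosing differences kept their sign for the 4 genes under every alternative run. The count of genes that passed, 0 in each comparison, became 2 for control + HMB relative to control with a robust prior and trend and 1 with only genes above the median mean, and 0 to 1 when 1 array was left out (1 without control replicate 3 or without DIO + HMB replicate 1). It became 1 for DIO relative to control + HMB with arrays centered on their median, and 0 to 1 for DIO + HMB relative to DIO (1 without DIO replicate 1). With the width of each array's values as a covariate, Acsm1 had a log2 difference of -0.57 for DIO + HMB relative to DIO and 0.24, a turned sign, for control + HMB relative to control. For DIO + HMB relative to control + HMB, Lpcat4 ranged from -0.15 to 0.0043 when 1 array was left out, with the sign turned without control + HMB replicate 2. Acsm1 gave no value under the low-value filter. With the replicate number as a block, DIO + HMB relative to DIO was -0.67 for Lpcat4, -0.37 for Gja1, -0.38 for Trp53rka and -0.77 for Acsm1, and 0 genes passed. Same-numbered arrays correlated at -0.185 to 0.297 in their deviations, over 0.1 in 3 of 18 pairs, so the numbers were not taken as pairing. The cause of these changes was not tested.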
